A study of Homo sapiens with 12 samples.

Results

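HCC827, an established human lung adenocarcinoma line that depends on an activating EGFR mutation, was compared with and without an shRNA against EGFR. The 6 arrays described here, of 12 in the series, were chosen by their titles. The control cells (NT, 3 arrays) had been infected with lentivirus carrying a non-target hairpin, and the knockdown cells (EGFRsh, 3 arrays) with one carrying the EGFR hairpin labelled Esh9-1. Both groups grew in RPMI with 5% FBS and 5 ug/ml puromycin and were harvested while growing exponentially. The other 6 arrays hold parental cells and erlotinib-resistant ERC4 cells. One characteristic of the labels calls every sample resistant to EGFR kinase inhibitors, the NT control included, so groups were taken from titles and descriptions. A single shRNA label stands for the knockdown, and the labels do not say whether its cells are a clone or a pool. An effect of EGFR loss, one of this hairpin and one of a clone, if it is one, therefore cannot be told apart. The labels do not say whether replicate arrays came from separate cultures, so the spread behind each p-value may be technical.

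EGFR is a receptor tyrosine kinase whose signal holds lung epithelial tumour cells in growth and survival. Epithelial cells are joined by tight junctions, adherens junctions and desmosomes, stiffened by keratin filaments, and polarised by vesicle traffic to an apical surface. Cells that lose this organisation commonly switch on repressors such as ZEB1, which bind E-box sequences before epithelial genes, and gain matrix, integrin and contractile genes, a change called epithelial-mesenchymal transition.

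Of 22215 probe sets that are not array controls, 11184 (50.3%) were called in EGFRsh against NT at a limma Benjamini-Hochberg adjusted p under 0.05, 5433 (24.5%) of them higher and 5751 (25.9%) lower. Changes of 2-fold or more numbered 1011 upward (4.55%) and 944 downward (4.25%), and the arrays of the groups did not overlap in 58.8%. For gene lists each gene was represented by its brightest probe set. Of 11963 genes, 6284 (52.5%) were called: 3204 upward (26.8%) and 3080 downward (25.7%). Of all genes, 605 (5.06%) rose and 486 (4.06%) fell 2-fold or more, and the median log2 fold change was -0.02. The arrays of the groups did not overlap in 61.6% of genes. Counts for the lists are read against these shares. Brightness matters to them: 7281 genes had a mean in either group of at least 7.17, the middle of all log2 values, and 68.4% of these were called, 37.2% higher and 31.1% lower. Of the same genes 7.55% rose and 6.03% fell 2-fold or more, and 77.5% had arrays that did not overlap. The other genes are called dim. Levels are log2(intensity + 1), and fold changes on this scale understate those of dim genes. Levels are compared only within a probe set.

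The array controls differed between the groups. ACTB probe sets at the 3' end minus those at the 5' end gave log2 signals of 0.17, 0.23 and 0.20 in NT and 1.24, 0.96 and 1.00 in EGFRsh, a difference of 0.87. The ACTB 3' signal itself moved by -0.02, the middle one by -0.40 and the 5' one by -0.89, so the fall grew towards the 5' end. GAPDH gave a 3' minus 5' excess of 0.35. Ribosomal RNA controls were higher in EGFRsh, apart from the 28S 3' probe set. The intensity of the 18S 5' probe set was 40, 75 and 82 in NT and 22131, 5282 and 21804 in EGFRsh, and that of the 28S 5' probe set 55, 417 and 343 against 3456, 2675 and 3569. Hybridisation controls averaged 11.37 in NT and 11.92 in EGFRsh on the log2 scale. The groups did not overlap for any of these apart from the ACTB 3' signal and the 28S 3' probe set. The exact two-sided permutation p was 0.1 for each that did not overlap, the smallest that 3 against 3 arrays allow. These controls moved with every gene group described here, and their part in the results was not tested. Replicate arrays correlated at 0.9969 or above across probe sets, and arrays of different groups at 0.9515 to 0.9569.

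**Figure D1:**
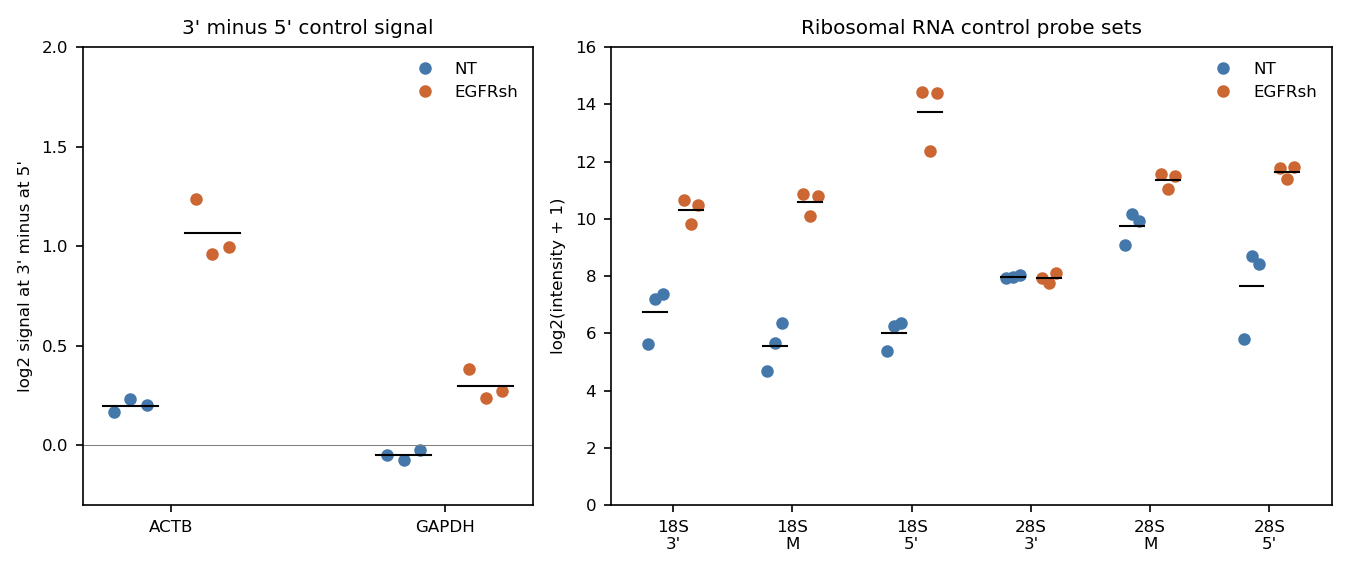
Control probe sets in each NT and EGFRsh array, with bars at group means. Left, log2 signal at the 3' end minus that at the 5' end for ACTB and GAPDH. Right, log2(intensity + 1) of the 18S and 28S ribosomal RNA probe sets. The EGFRsh arrays lie above the NT arrays for every control shown except the 28S 3' probe set, where the difference was -0.05.

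EGFR, the target of the shRNA, had levels of 13.47, 13.66 and 13.51 in NT and 12.16, 12.27 and 12.32 in EGFRsh at its brightest probe set. The groups did not overlap. The fall of 1.30 ± 0.075 (SE) on the log2 scale was 2.46-fold (adjusted p = 9.2e-07), and EGFR remained among the bright transcripts. The signal of 3 other EGFR probe sets fell further, 4.47-fold to 6.6-fold. Another EGFR probe set, near the middle of all levels, went the other way: it was 7.30, 7.18 and 7.32 in NT and 7.39, 7.47 and 7.50 in EGFRsh (adjusted p = 0.045). Such disagreement was not rare, since 4310 genes were read by more than 1 probe set and 408 of them were called both upward and downward, 1 by at least 2-fold each way. Of 112 other genes named by the rule with more than 1 probe set, 32 had at least 1 that was not called, so sizes given here belong to the brightest probe set.

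**Figure D2:**
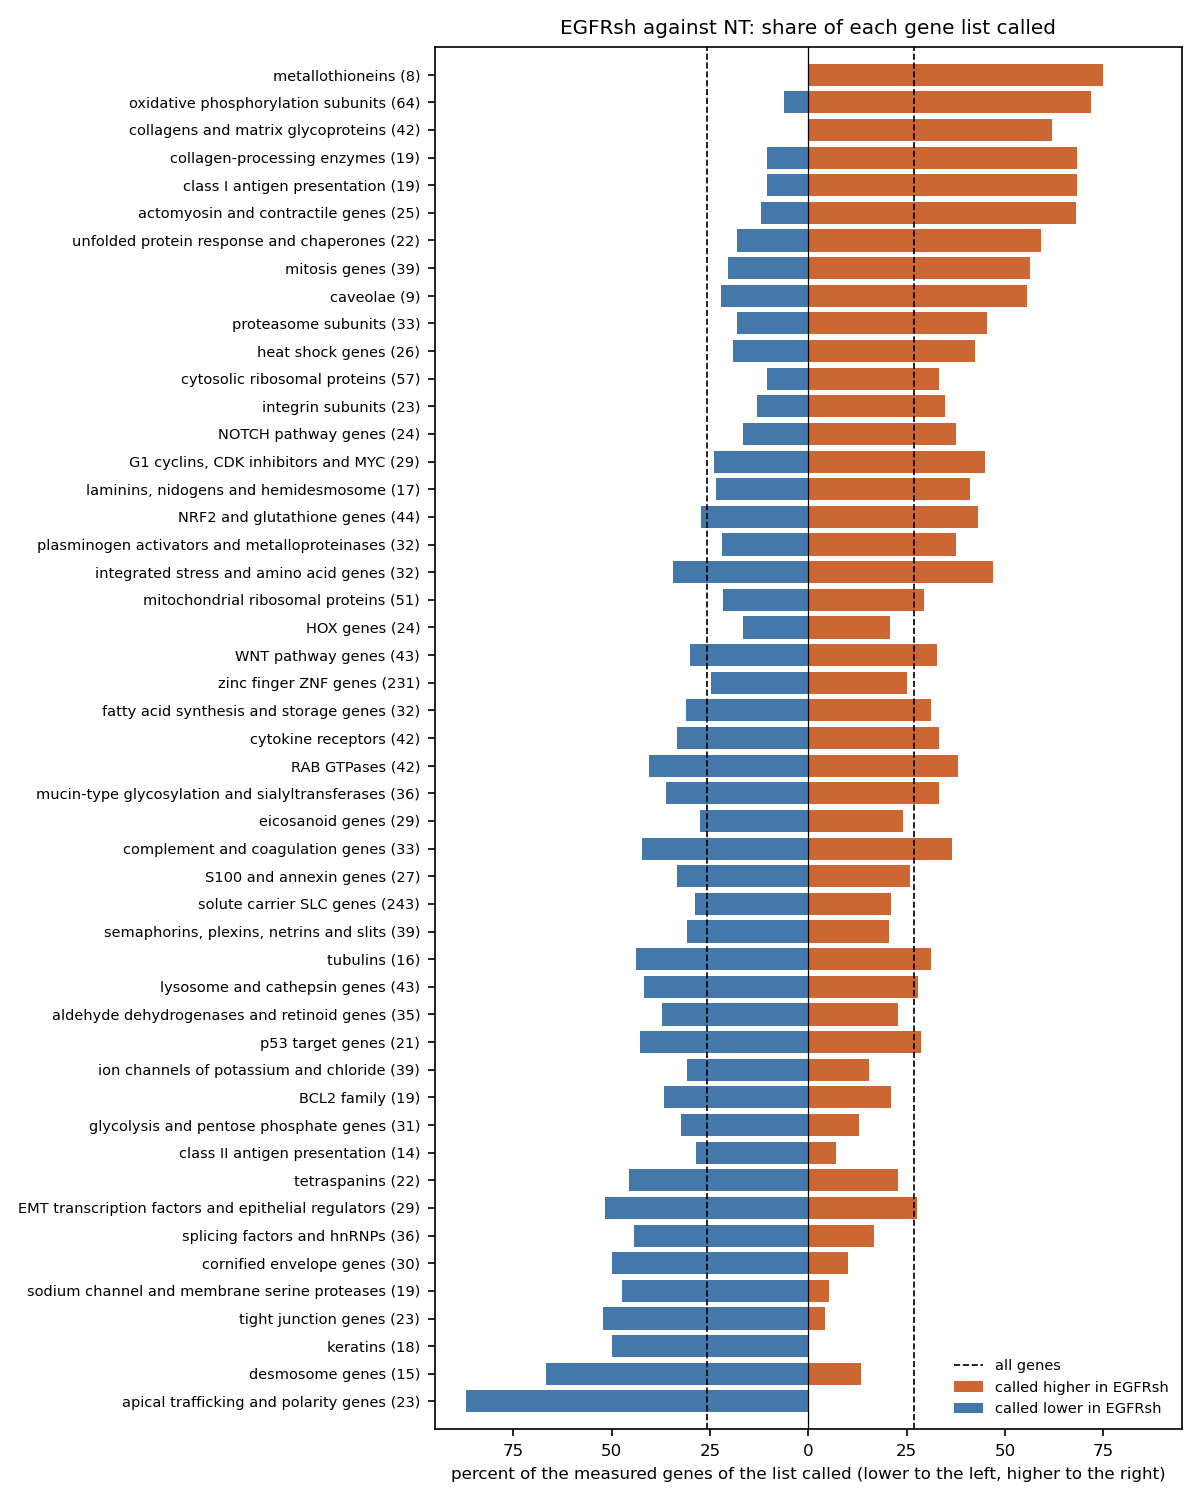
Share of the measured genes of each list called higher (right) or lower (left) in EGFRsh, with the number measured in brackets. Dashed lines mark the 26.8% and 25.7% of all genes. The shares of genes that were not dim, 37.2% higher and 31.1% lower, are not marked. Lists are ordered by the share higher minus the share lower: 46 of 64 oxidative phosphorylation subunits were higher and 20 of 23 apical trafficking genes lower.

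The promoters below, of genes first described in the next paragraphs, are printed because they hold the E-box to which ZEB1 and SNAI2 bind. They are 60-base stretches of the sense strand upstream of the RefSeq start, in GRCh38.p14, with the letters CACCTG or their reverse complement CAGGTG in capitals. Either strand was searched from 250 bases before the start to 50 after it.
RAB25: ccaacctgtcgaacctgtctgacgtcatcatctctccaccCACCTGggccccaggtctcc
RAB17: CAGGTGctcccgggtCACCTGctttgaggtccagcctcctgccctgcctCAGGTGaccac
AP1M2: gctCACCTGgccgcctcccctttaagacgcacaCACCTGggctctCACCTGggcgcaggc
DSP: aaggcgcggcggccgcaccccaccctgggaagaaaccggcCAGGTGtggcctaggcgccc
OCLN: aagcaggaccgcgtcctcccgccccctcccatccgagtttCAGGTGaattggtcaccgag

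They lie at chr1:156061079-156061138 on the plus strand, chr2:237590753-237590812 and chr19:10587313-10587372 on the minus strand, and chr6:7541546-7541605 and chr5:69492474-69492533 on the plus strand. The RAB17 and AP1M2 stretches each hold the letters 3 times. Of 27305 genes with a promoter in the RefSeq table, 5625 (20.6%) held this E-box. Among the lists, it was found in 8 of 17 apical trafficking promoters (47.1%), 10 of 24 of the cornified envelope list (41.7%), 6 of 16 of the tight junction list (37.5%) and 4 of 11 of the desmosome list (36.4%). Other lists of mostly falling genes lay near or under the share of all promoters: 2 of 9 keratin promoters (22.2%), 4 of 19 of the epithelial regulators (21.1%) and 1 of 10 of the sodium channel and serine protease list held it. It was found in 2 of 27 promoters of the matrix list (7.41%) and 1 of 22 of the actomyosin list (4.55%). Lists that moved in both directions also had high shares: 6 of 18 p53 target promoters (33.3%) and 8 of 25 of the S100 and annexin list (32.0%). Promoters of genes that rose held it too, among them those of ZEB1, ADAM19 and TJP1. A match describes these letters and is not evidence of binding.

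The genes for apical vesicle traffic and polarity fell almost as a block. Of 23 measured, 20 fell and 0 rose, 12 of them 2-fold or more, with a median of -1.14; the list was chosen with earlier results of these data known. RAB25, a small GTPase of apical recycling endosomes, was 8.32, 8.39 and 8.54 in NT and 5.68, 5.82 and 5.71 in EGFRsh. It fell 6.41-fold (adjusted p = 1.3e-08), and the EGFRsh arrays lay under the array medians. AP1M2, the epithelial subunit of the AP-1 clathrin adaptor, was 10.01, 9.97 and 9.99 against 7.15, 7.29 and 7.42, a 6.5-fold fall. RAB27B, which tethers secretory vesicles, fell 6.33-fold, the membrane channel-like gene TMC5 8.99-fold and SH3YL1 8.70-fold. RAB GTPases as a family were called about equally in each direction: of 42, 16 were higher (38.1%) and 17 lower (40.5%). Only 5 of the 42 were dim, and among all genes that were not dim 37.2% were higher and 31.1% lower. No RAB gene rose 2-fold, and the 5 that fell 2-fold or more were RAB25, RAB27B, RAB15, RAB38 and RAB17. RAB15, of the recycling endosome, was 12.16, 12.20 and 12.18 in NT and 10.25, 10.06 and 10.04 in EGFRsh.

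Desmosome genes were lower in 10 of 15 cases and higher in 2, with a median of -1.01. The desmosomal cadherin DSC2 was 9.61, 9.36 and 9.36 in NT and 6.0 to 6.11 in EGFRsh, a 10.5-fold fall. DSP, which ties the desmosome to keratin, was 10.65, 10.52 and 10.64 against 7.42, 7.48 and 7.26, a 9.31-fold fall. JUP, the junctional catenin plakoglobin, fell 7.09-fold, PERP 5.74-fold and the plakin PPL 5.34-fold. Cadherin paralogs parted: DSC3, dim in every array, rose by 0.90 ± 0.084 on the log2 scale while DSC2 and DSG2 fell. Of the plakophilins, PKP3 fell by 2.0 and PKP4 rose by 0.59. Of the 15, 8 fell by 2-fold or more, and no member rose that far.

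Among tight junction genes, 12 of 23 were lower and 1 higher, 6 by at least 2-fold (median -0.23). LSR, a receptor of junctions where 3 cells meet, was 10.89 to 11.03 in NT and 7.33, 7.04 and 7.17 in EGFRsh, a 13.9-fold fall. OCLN, the strand protein occludin, was 8.71, 8.68 and 8.81 against 6.07, 6.21 and 6.31, a 5.79-fold fall. Claudins, which set the permeability of the strands, fell to different degrees: CLDN7 28.7-fold, CLDN3 4.47-fold, CLDN4 2.37-fold and CLDN1 1.22-fold. The scaffold gene TJP1 was the 1 member that rose, by 0.28 ± 0.068.

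No keratin rose. Of 18 measured, 9 were lower and 9 not called, and 11 of the 18 were dim in both groups. KRT19, a simple-epithelium keratin, was 13.16, 13.19 and 13.19 in NT and 8.71, 8.69 and 8.52 in EGFRsh, a 23.2-fold fall. The pair partners KRT8 and KRT18 fell by similar amounts, 4.32-fold and 3.61-fold, and KRT7 fell 3.71-fold. KRT7 was still at 12.09, 12.01 and 12.09 in EGFRsh. KRT4 fell 9.87-fold and the basal KRT15 3.95-fold. Keratins are close in sequence, and probe sets with the suffix x_at, as for KRT8 and KRT18, can share signal with paralogs.

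Genes of the cornified envelope, the cross-linked shell of surface epithelium, were lower in 15 of 30 cases and higher in 3 (median -0.20). The large falls lay in 5 genes. SPRR3, a small proline-rich envelope precursor, was 11.80, 11.79 and 11.67 in NT and 6.45, 6.36 and 6.74 in EGFRsh, a 37.6-fold fall. SCEL fell 34.5-fold, SPRR1B 29.7-fold and SPRR1A 4.39-fold. The serpin SERPINB7 rose 3.49-fold. As many as 20 of the 30 were dim in both groups, so most members carry little signal.

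The epithelial sodium channel is activated by membrane-bound serine proteases, and genes of both kinds fell. Of 19 measured, 9 were lower and 1 higher, 6 lower by at least 2-fold (median -0.19). SCNN1A, the alpha subunit of the epithelial channel, was 11.71, 11.53 and 11.64 in NT and 5.95, 5.72 and 5.89 in EGFRsh, a 54.8-fold fall to below the array medians; its other 2 probe sets fell by 0.91 and 0.31 on the log2 scale. The proteases PRSS8 (prostasin) and ST14 (matriptase) fell 9.03-fold and 8.06-fold. Their inhibitor SPINT1 fell 13.4-fold, so protease and inhibitor genes moved the same way. TMPRSS11E fell 18.8-fold.

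Transcription factors and splicing regulators that hold the epithelial state were lower and several repressors higher. Of 29 genes in this list, 15 fell and 8 rose, 10 and 5 of them 2-fold or more. OVOL2, a zinc finger repressor of ZEB1, was 8.70, 8.68 and 8.85 in NT and 5.42, 5.66 and 5.64 in EGFRsh, an 8.98-fold fall. GRHL2, a grainyhead factor that activates junction genes, was 8.71, 8.36 and 8.70 against 5.68, 5.74 and 5.71, a 7.36-fold fall. The ETS factor EHF fell 13.8-fold and the splicing regulator ESRP1 18.7-fold. ZEB1 was 5.41, 5.28 and 5.45 in NT and 9.13, 9.26 and 9.07 in EGFRsh, a 13.7-fold rise from dim to bright; its other 2 probe sets rose by 1.5 and 1.78 on the log2 scale. Its paralog ZEB2 rose 7.33-fold but reached only 7.04, 7.07 and 6.34. SNAI2 was 4.91, 5.34 and 5.27 in NT and 7.71, 7.81 and 7.76 in EGFRsh, a 6.01-fold rise. TWIST1, another repressor of epithelial genes, rose by 0.30 ± 0.085 and was dim in all arrays. Lineage factors moved less: the lung factor NKX2-1 was 10.43, 10.20 and 10.28 in NT and 9.25, 9.18 and 9.30 in EGFRsh, a 2.09-fold fall, and FOXA1 fell 2.57-fold.

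**Figure D3:**
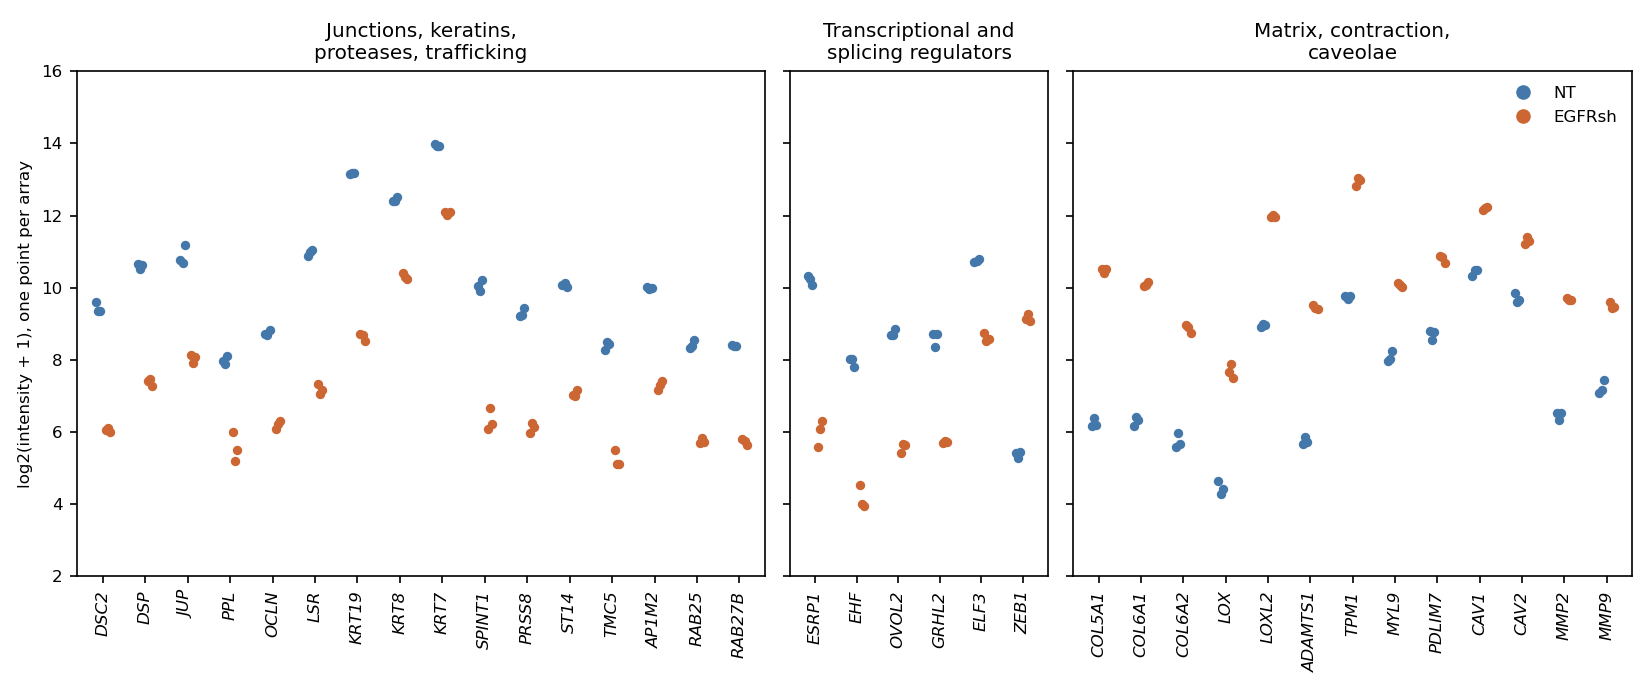
Log2(intensity + 1) of named genes in each of the 3 NT and 3 EGFRsh arrays. NT lies above EGFRsh for every gene in the left panel, as for KRT19 (23.2-fold) and DSC2 (10.5-fold), and below it for every gene in the right panel. In the middle panel ZEB1 lies higher in EGFRsh and the other 5 genes lower.

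Collagens and matrix glycoproteins mostly rose. Of 42 measured, 26 rose and 0 fell, 20 of the rises reaching 2-fold, with a median of 0.86. This list too was chosen with earlier results known. There was 1 lower without NT replicate 2, with trend and robust eBayes, with quantile normalization and without dim probe sets. With probe sets averaged per gene there were 2. COL5A1, a fibril-nucleating collagen, was 6.17, 6.39 and 6.20 in NT and 10.53, 10.40 and 10.52 in EGFRsh, an 18.8-fold rise. The beaded-filament chains COL6A1 and COL6A2 rose 13.8-fold and 8.75-fold, though of the other 7 COL6A1 probe sets 3 rose, by 1.23-fold to 3.25-fold, and 4 were not called. SPARC, a collagen-binding glycoprotein, was 4.52, 4.89 and 4.59 against 9.69, 9.44 and 9.40. THBS1 shows how much the probe set matters: its brightest probe set rose 9.28-fold, and the other 4 gave rises of 1.75-fold to 78.1-fold.

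Enzymes that shape collagen rose with it, 13 of 19 higher and 2 lower (median 0.74). LOXL2, a lysyl oxidase that cross-links collagen, was 8.90, 8.99 and 8.96 in NT and 11.96, 12.01 and 11.96 in EGFRsh, an 8.15-fold rise. LOX was 4.63, 4.26 and 4.41 against 7.65, 7.89 and 7.48. The prolyl hydroxylase P3H2 rose 7.97-fold, the procollagen enhancer PCOLCE2 5.01-fold and the matrix protease ADAMTS1 13.1-fold. In the wider list of plasminogen activators, metalloproteinases and their inhibitors, 12 of 32 were higher and 7 lower (median 0.05). The gelatinases MMP2 and MMP9 rose 9.25-fold and 4.81-fold, ADAM19 26.4-fold and the serpin SERPINE2 3.33-fold. The membrane-anchored MMP15 fell by 1.19 ± 0.10 and MMP14 by 0.41 ± 0.089. PLAU, the urokinase gene, its receptor PLAUR and the inhibitor TIMP1 rose 1.87-fold, 1.42-fold and 1.58-fold.

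Integrins, the receptors for this matrix, did not move as a family. Of 23 measured, 8 were higher, 3 lower and 12 not called (median 0.08). ITGA2, a collagen-binding subunit, was 10.42, 10.73 and 10.42 in NT and 7.88, 7.91 and 8.10 in EGFRsh, a 5.90-fold fall. ITGB4, the hemidesmosome subunit, was 8.49, 8.39 and 8.67 against 6.0, 6.24 and 6.14, a 5.24-fold fall. The fibronectin receptor subunit ITGA5 was 8.48, 8.61 and 8.61 in NT and 10.34, 10.39 and 10.24 in EGFRsh, a 3.38-fold rise. ITGAV rose 2.61-fold and the common subunit ITGB1 2.0-fold. ITGA6, the partner of ITGB4, was higher by 0.85 at its brightest probe set and lower by 0.32 at another (adjusted p = 0.012), so its direction is uncertain.

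Basement membrane genes were likewise divided, with 7 of 17 laminin, nidogen and hemidesmosome genes higher and 4 lower (median 0.17). LAMB1 rose 1.74-fold and LAMB3, the chain of epithelial laminin, fell 1.68-fold. LAMA5 fell by 0.46 ± 0.071. The heparan sulphate proteoglycan HSPG2 was 7.01, 7.08 and 7.15 in NT and 8.47, 8.60 and 8.58 in EGFRsh, a 2.76-fold rise.

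**Figure D4:**
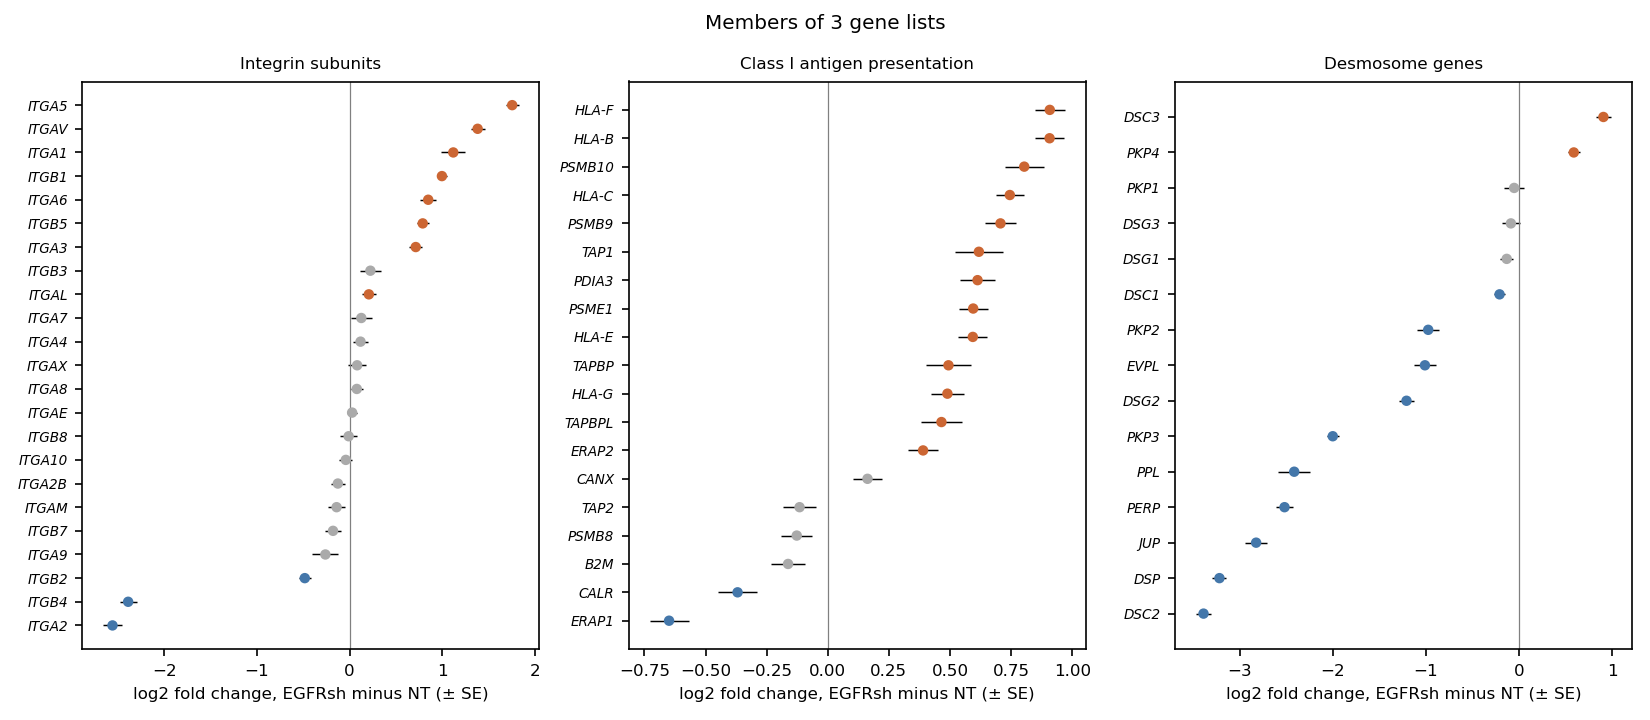
Log2 fold change with its standard error for each measured integrin subunit, class I antigen presentation gene and desmosome gene; orange marks genes called higher, blue genes called lower and grey genes not called. Integrins spread from ITGA2 at -2.56 to ITGA5 at 1.76, class I genes stay within -0.65 to 0.91, and most desmosome genes lie below 0.

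Actomyosin genes rose in 17 of 25 cases and fell in 3, with a median of 0.49. TPM1, a tropomyosin that stabilises stress fibres, was 9.77, 9.68 and 9.78 in NT and 12.81, 13.05 and 12.99 in EGFRsh, a 9.23-fold rise. The myosin light chain MYL9 rose 4.0-fold, the fibre-associated PDLIM7 4.30-fold, CNN3 3.57-fold and TAGLN 50.9-fold. The smooth muscle actins did not follow. ACTA2 was 6.93, 6.88 and 6.74 in NT and 6.33, 6.38 and 6.56 in EGFRsh, a fall of 0.43 ± 0.083, and ACTG2 fell by 0.30 ± 0.081. Both genes were dim.

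Many contractile genes carry a CArG box, the site of serum response factor (SRF). It was found, on either strand, in 5 of 22 promoters of this list (22.7%), those of SRF, TPM4, CNN2, MYLK and ACTG2, against 1.29% of all 27305. Of these 5 genes, SRF itself (0.46), TPM4 (0.51), CNN2 (0.49) and MYLK (0.30) were higher and ACTG2 was lower. The stretches below show the box in capitals for a member that fell and 3 that rose.
SRF: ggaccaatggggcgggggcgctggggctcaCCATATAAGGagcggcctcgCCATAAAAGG
TPM4: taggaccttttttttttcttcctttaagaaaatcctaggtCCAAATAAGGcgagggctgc
CNN2: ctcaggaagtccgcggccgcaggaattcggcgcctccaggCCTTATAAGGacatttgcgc
ACTG2: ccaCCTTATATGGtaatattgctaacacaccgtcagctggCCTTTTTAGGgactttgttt

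They lie at chr6:43171209-43171268, chr19:16067325-16067384, chr19:1026479-1026538 and chr2:73892895-73892954, all on the plus strand of GRCh38.p14. The box was thus found before genes of either direction.

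Caveolae are small pits of the plasma membrane. Of 9 caveolar genes, 5 rose and 2 fell (median 0.32). The coat genes rose together: CAV1 was 10.32, 10.49 and 10.49 in NT and 12.14, 12.20 and 12.24 in EGFRsh, a 3.38-fold rise, CAV2 rose 3.05-fold, CAVIN1 2.60-fold and CAVIN3 3.32-fold. PACSIN2, which bends the caveolar neck, fell 1.51-fold.

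WNT pathway genes were near the background in number, 14 of 43 higher and 13 lower, and 8 rose and 4 fell by 2-fold or more. Frizzled receptor genes differed in direction. FZD7 was 5.10, 4.47 and 4.77 in NT and 9.67, 9.45 and 9.79 in EGFRsh, a 29.0-fold rise. FZD2 rose 6.98-fold and FZD1 2.71-fold, while FZD5 was 8.99, 9.13 and 9.16 against 7.65, 7.61 and 7.59, a 2.79-fold fall. The ligand gene WNT5A, which signals mostly without beta-catenin, was 5.95, 5.64 and 5.69 against 8.26, 8.18 and 8.20. The secreted antagonists DKK1 and DKK3 rose 6.15-fold and 12-fold.

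In the NOTCH pathway, 9 of 24 were higher and 4 lower. The ligand gene JAG1 rose 2.58-fold and JAG2 fell 1.36-fold. The receptors NOTCH1 and NOTCH2 rose 2.12-fold and 1.98-fold, and the cleaving protease ADAM10 1.66-fold. HES1, a target gene of the pathway, did not follow: it was 8.68, 8.56 and 8.72 in NT and 8.02, 7.96 and 7.89 in EGFRsh, a 1.62-fold fall. DTX4, a NOTCH-regulating ubiquitin ligase, fell 7.57-fold. Among 39 semaphorins, plexins, netrins and slits, the guidance cues also used by tumour cells, 8 were higher and 12 lower. Here the ligand paralogs crossed. SEMA3C was 8.72, 8.38 and 8.36 in NT and 11.53, 11.66 and 11.64 in EGFRsh, an 8.70-fold rise. SEMA3A was 9.16, 9.14 and 9.07 against 6.43, 6.37 and 6.57, a 6.32-fold fall. The receptor genes PLXND1 and PLXNB3 fell 2.53-fold and 2.26-fold and NEO1 rose 2.23-fold.

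Class I antigen presentation genes were modestly and widely higher. Of 19 measured, 13 were higher and 2 lower, none by 2-fold, with a median of 0.49. HLA-B, a peptide-presenting heavy chain, was 13.07, 13.15 and 13.16 in NT and 14.06, 14.02 and 14.03 in EGFRsh, a 1.88-fold rise. HLA-F and HLA-C rose 1.88-fold and 1.68-fold, the immunoproteasome subunits PSMB10 and PSMB9 1.75-fold and 1.63-fold and the peptide transporter TAP1 1.53-fold. The heavy chain genes are near copies read by x_at probe sets, so their separate values are uncertain. Their common partner B2M was 14.10, 14.02 and 14.03 against 13.78, 13.96 and 13.92 (adjusted p = 0.078). The peptide-trimming ERAP1 fell 1.57-fold. Class II genes were lower in 4 of 14 cases and higher in 1 (median -0.15). HLA-DMB and HLA-DRB1 fell 1.53-fold and 1.41-fold, HLA-DQB1 1.15-fold, and LGMN, a lysosomal protease, rose 1.58-fold; the call for HLA-DQB1 was lost without any single array other than EGFRsh replicate 3, with limma adjusted p of 0.059 to 0.12.

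Complement and coagulation genes were called in 26 of 33 cases, 12 higher and 14 lower. F3, tissue factor, which starts coagulation, was 9.15, 9.14 and 9.16 in NT and 11.52, 11.79 and 11.65 in EGFRsh, a 5.68-fold rise, the thrombin receptor F2R rose 11.9-fold and the protein C receptor PROCR 3.33-fold. Of the complement genes, CFI fell 9.04-fold and CFB 3.57-fold. CFB was 10.67, 10.63 and 10.60 against 8.91, 8.71 and 8.76.

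Of 42 cytokine receptors, 14 were higher and 14 lower. The chains of the interleukin 6 receptor parted. IL6R, the binding chain, was 7.63, 7.80 and 8.01 in NT and 6.88, 6.48 and 6.56 in EGFRsh, a 2.26-fold fall, and IL6ST, the signalling chain, rose 2.88-fold at its brightest probe set. Of the other 4 IL6ST probe sets, 3 were higher and 1 was lower, by 0.64 ± 0.16. IL7R rose 2.63-fold, and IL1R1 and IL17RB fell 2.20-fold each.

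Oxidative phosphorylation subunits rose in 46 of 64 cases and fell in 4, none by 2-fold, with a median of 0.33. NDUFA6, a complex I subunit, was 10.61, 10.76 and 10.71 in NT and 11.57, 11.50 and 11.51 in EGFRsh, a 1.78-fold rise. NDUFA9 and NDUFC1 of the same complex rose 1.73-fold and 1.65-fold. SDHD of complex II (1.65-fold) and NDUFB8 (1.67-fold) rose at their brightest probe sets, and each had another called lower, by 0.20 and 0.25. Glycolysis and pentose phosphate genes gave 4 higher and 10 lower of 31, with a median of -0.01. PFKFB3, which makes the activator of phosphofructokinase, was 10.61, 10.69 and 10.64 in NT and 8.92, 8.79 and 8.75 in EGFRsh, a 3.55-fold fall. HK2 fell 2.60-fold at its brightest probe set (another was higher by 0.24), ALDOC 2.82-fold, PDK1 2.11-fold and PFKFB4 1.73-fold.

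**Figure D5:**
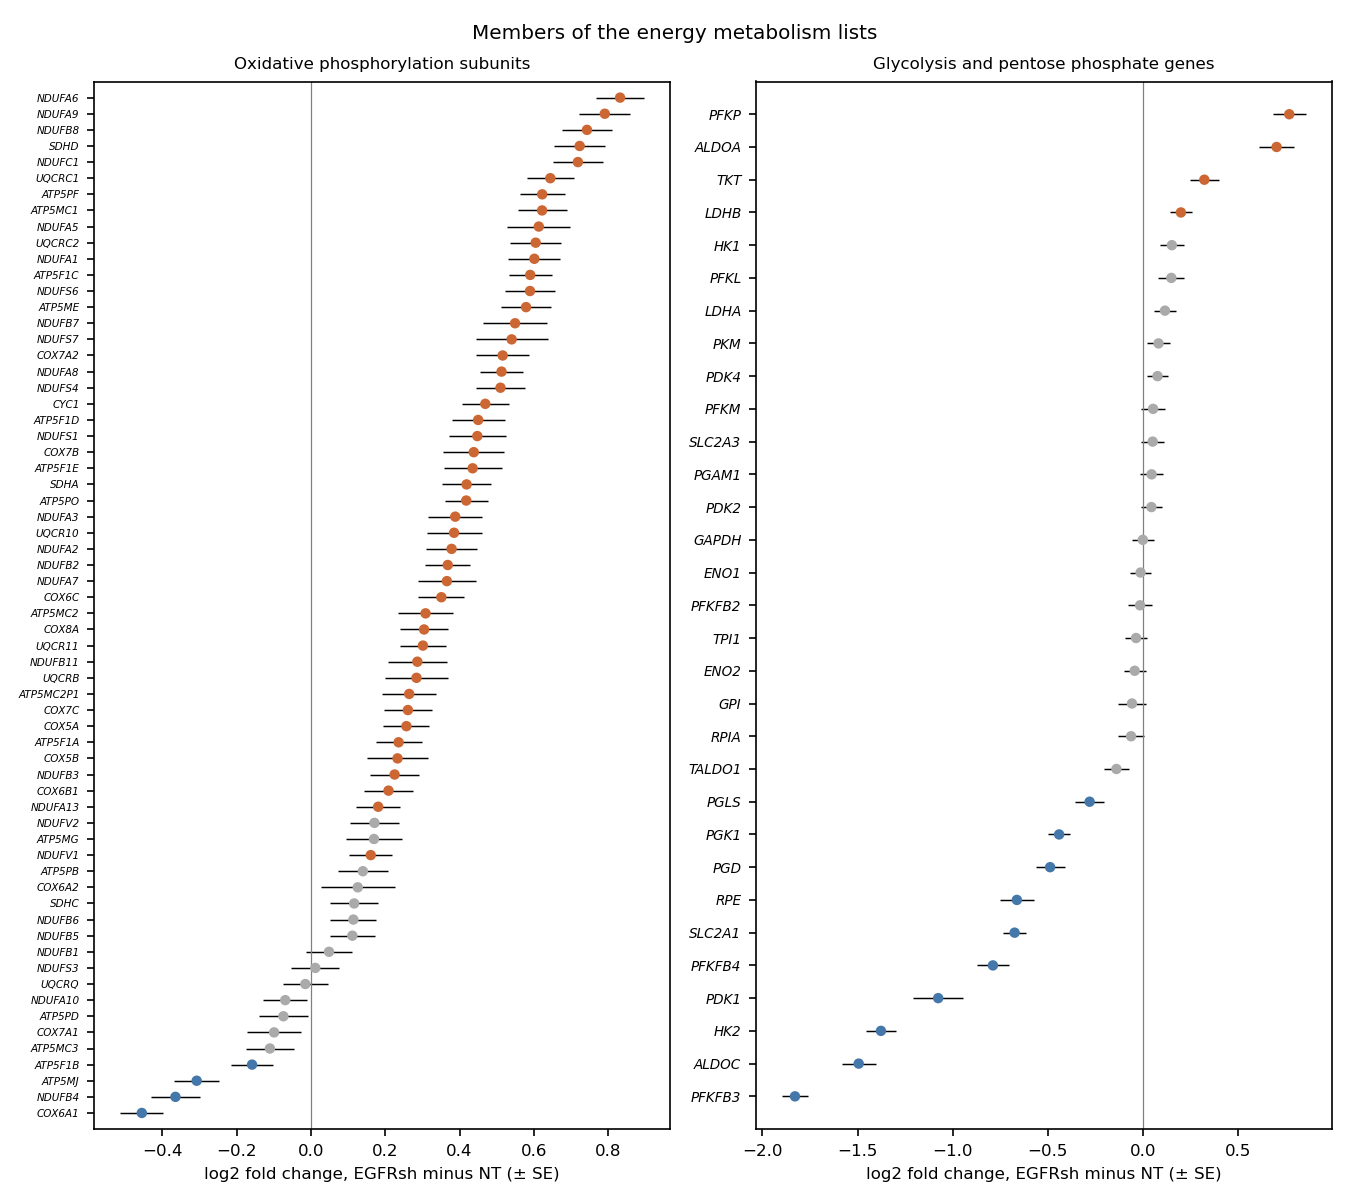
Log2 fold change with its standard error for each oxidative phosphorylation subunit (left) and each glycolysis and pentose phosphate gene (right); orange marks genes called higher, blue genes called lower and grey genes not called. Subunits lie between -0.46 and 0.83 with 46 of 64 called higher, and the glycolysis list reaches -1.83 at PFKFB3.

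Fatty acid genes gave 10 higher and 10 lower of 32. The synthesis pathway fell at SREBF1, its transcriptional activator (4.38-fold), at FASN (2.82-fold) and at the desaturase SCD, which was 12.30, 12.26 and 12.30 in NT and 8.92, 9.15 and 9.16 in EGFRsh, a 9.24-fold fall. ELOVL6, which lengthens the chains and is a neighbour of FASN and SCD in the pathway, rose 2.95-fold, from 8.84, 8.95 and 8.92 to 10.47, 10.45 and 10.45. ACSL4, which activates polyunsaturated chains, rose 3.76-fold.

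Among NRF2 and glutathione genes, 19 of 44 were higher and 12 lower (median 0.05). HMOX1, the heme oxygenase, was 7.38, 7.11 and 7.22 in NT and 9.71, 9.61 and 9.79 in EGFRsh, a 5.51-fold rise. GSTM3 rose 9.31-fold, AKR1C3 4.34-fold and the peroxiredoxin PRDX4 3.32-fold. Glutathione synthesis was divided, as GCLM rose 1.80-fold and GCLC, the catalytic chain, fell 1.69-fold. The exporter ABCC3 fell 3.0-fold. Metallothioneins were higher in 6 of 8 cases (median 0.38), MT1F by 1.76-fold, MT1G by 1.44-fold, MT1H by 1.40-fold and MT2A by 1.36-fold, but these near copies share x_at probe sets and are not independent.

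Aldehyde dehydrogenase and retinoid genes gave 8 higher and 13 lower of 35. PLAAT4, a retinoid-induced phospholipase, was 12.30, 12.42 and 12.46 in NT and 8.40, 7.89 and 8.15 in EGFRsh, a 19.0-fold fall. ALDH1A3, which makes retinoic acid, DHRS3 and ALDH6A1 fell 2.60-fold, 2.58-fold and 2.51-fold, while the transglutaminase TGM2 rose 4.41-fold. Eicosanoid genes gave 7 higher and 8 lower of 29. PTGES, the prostaglandin E synthase, rose 3.33-fold, from 8.58, 8.70 and 8.77 to 10.41, 10.40 and 10.44. The prostaglandin transporter SLCO2A1 fell 3.71-fold, the phospholipase PLAAT3 4.77-fold and the leukotriene enzyme LTA4H 2.06-fold.

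The unfolded protein response and endoplasmic reticulum chaperone list was higher in 13 of 22 cases and lower in 4 (median 0.24). CREB3L1, a membrane-bound factor that induces secretory and collagen genes, was 6.74, 6.88 and 6.77 in NT and 8.52, 8.33 and 8.52 in EGFRsh, a 3.15-fold rise. CREB3L2 rose 2.18-fold, the chaperones DNAJB9 and PDIA3 1.62-fold and 1.53-fold and the translocon subunit SEC61B 1.49-fold. Integrated stress and amino acid genes were called in 26 of 32 cases, 15 higher and 11 lower. DDIT4, an mTOR inhibitor, was 12.69, 12.62 and 12.53 against 9.60, 9.58 and 9.69, a 7.93-fold fall. STC2 rose 4.24-fold and the amino acid transporter SLC7A5 2.06-fold, while WARS1 fell 2.23-fold and VEGFA 2.16-fold. Heat shock genes rose in 11 of 26 cases and fell in 5, a count of 3 without EGFRsh replicate 1, EGFRsh replicate 2, NT replicate 1 or NT replicate 2. The small heat shock protein HSPB1, 13.34, 13.35 and 13.43 in NT and 12.15, 12.03 and 12.04 in EGFRsh, fell 2.47-fold. HSPH1 rose 2.15-fold, DNAJB6 1.83-fold, BAG2 1.49-fold and CHORDC1 1.44-fold.

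Mitosis genes rose in 22 of 39 cases and fell in 8, with a median of 0.27. CENPF, a kinetochore protein, was 9.91, 9.43 and 9.47 in NT and 10.81, 10.75 and 10.83 in EGFRsh, a 2.28-fold rise. CENPE rose 2.99-fold, KIF14 2.05-fold, NEK2 1.90-fold and HMMR 1.79-fold. Among G1 genes, 13 of 29 were higher and 7 lower. CCND3 and CDK6, which drive G1, rose 2.36-fold and 2.27-fold and CCND1 1.73-fold. CDKN1B, which inhibits cyclin-dependent kinases, rose too, from a range of 8.89 to 9.01 to one of 9.95 to 10.01, a 2.05-fold rise. RB1 was higher by 0.98 at its brightest probe set and lower by 0.82 at another. p53 target genes gave 6 higher and 9 lower of 21. GDF15, a secreted stress factor, fell 6.25-fold, and ZMAT3, TIGAR and GADD45A rose 1.66-fold each. In the BCL2 family, 4 of 19 were higher and 7 lower: the death-promoting BIK, BNIP3 and BAX fell 2.16-fold, 1.68-fold and 1.53-fold, and BID and PMAIP1 rose 1.85-fold and 1.71-fold.

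Lysosome and cathepsin genes gave 12 higher and 18 lower of 43 (median -0.15). GPNMB, a lysosomal glycoprotein, was 9.79, 9.80 and 9.96 in NT and 6.01, 6.07 and 6.08 in EGFRsh, a 13.9-fold fall. The cathepsins CTSH and CTSV fell 5.31-fold and 3.87-fold and CTSL and CTSD rose 2.78-fold and 1.78-fold, so the proteases of the lysosome changed in both directions. LAMP3 and IDS fell 4.30-fold and 4.29-fold.

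Calcium-binding S100 and annexin genes gave 7 higher and 9 lower of 27. S100P was 10.93 to 11.26 in NT and 6.63, 6.39 and 6.18 in EGFRsh, a 25.4-fold fall, and S100A14 fell 3.21-fold. Of the membrane-binding annexins, ANXA5 (2.34-fold) and ANXA6 (2.30-fold) rose and ANXA4 (2.36-fold) and ANXA1 (2.05-fold) fell. Tetraspanins, which organise membrane domains, gave 5 higher and 10 lower of 22. TSPAN8 was 9.20, 9.06 and 9.42 against 4.51, 4.42 and 4.68, a 25.7-fold fall. TSPAN1 fell 4.52-fold, CD9 4.08-fold and TSPAN6 2.13-fold, while TSPAN4 and CD82 rose 2.14-fold and 2.05-fold.

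Genes of mucin-type glycosylation and sialylation gave 12 higher and 13 lower of 36. The initiating transferases divided at their brightest probe sets. GALNT6 fell 7.13-fold and GALNT3 4.43-fold, and GALNT2 was 9.98, 10.13 and 10.19 in NT and 11.45, 11.42 and 11.33 in EGFRsh, a 2.47-fold rise. Another GALNT2 probe set, also not dim, was not called (1.13-fold higher, limma adjusted p = 0.072). ST6GAL1, a sialyltransferase, fell 3.74-fold and B3GNT2 2.63-fold. Potassium and chloride channel genes gave 6 higher and 12 lower of 39, with 27 of them dim in both groups. The channels KCNK2, KCNQ3 and KCNK1 fell 4.23-fold, 2.09-fold and 1.55-fold, and CLIC4 and CLCN3 rose 2.92-fold and 1.47-fold. A further CLIC4 probe set rose 1.26-fold and another was not called (1.04-fold higher).

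Families picked by gene name or complex changed mostly by less than 2-fold. Cytosolic ribosomal proteins rose in 19 of 57 cases and fell in 6. RPS27L rose 3.28-fold, and RPL27A, RPL14, RPL26L1 and RPS25 rose 1.37-fold to 1.49-fold. Mitochondrial ribosomal proteins, 2 of them dim, were higher in 15 of 51 (29.4%) and lower in 11 (21.6%), also under those shares. Without NT replicate 1 only 9 were higher. MRPL52 and MRPS10 rose 2.21-fold and 1.80-fold and MRPL42 fell 1.67-fold. MRPS12 fell by 0.65 at its brightest probe set and was higher by 0.62 at another. Proteasome subunits were higher in 15 of 33 and lower in 6, PSMD2 and PSMB7 rising 1.64-fold and 1.61-fold and PSMD3 falling 1.92-fold. Splicing factors and hnRNPs were lower in 16 of 36 and higher in 6 (median -0.14), with falls of 1.82-fold for SRSF7 and 1.81-fold for HNRNPF. Tubulins gave 5 higher and 7 lower of 16. TUBA4A was 12.04, 11.88 and 12.10 in NT and 13.33, 13.28 and 13.37 in EGFRsh, a 2.49-fold rise, TUBB2A rose 2.36-fold and TUBB3 fell 1.69-fold.

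The 231 measured zinc finger genes named ZNF gave 58 higher and 57 lower, with ZNF165 (5.46-fold) and ZNF702P (2.78-fold) falling and ZNF22 (2.80-fold) rising. The 243 solute carriers gave 51 higher and 70 lower. SLC4A4, a sodium bicarbonate cotransporter, was 5.74, 5.80 and 5.87 in NT and 9.36, 9.25 and 9.30 in EGFRsh, an 11.3-fold rise, while its other 3 probe sets rose 1.4-fold to 1.59-fold. SLC26A2, a sulphate transporter, and SLC22A4 rose 4.25-fold and 3.85-fold, and SLC27A2 fell 4.09-fold. HOX genes gave 5 higher and 4 lower of 24, of which 18 were dim. HOXC10 was 8.24, 8.28 and 8.42 against 6.32, 5.76 and 5.81, a 5.09-fold fall, and HOXC6, of the same cluster, rose 1.48-fold.

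Genes in none of the lists, and not singled out by earlier results, were ranked by fold change. The highest was NPPB, the B-type natriuretic peptide, at 5.75, 5.76 and 6.19 in NT and 10.41, 10.41 and 10.22 in EGFRsh, a 21.8-fold rise. PDGFC, a growth factor for mesenchymal cells, was 8.04, 7.83 and 8.11 against 11.82, 11.82 and 11.89, a 14.5-fold rise. LGALS1, the matrix-binding lectin galectin-1, was 9.57, 9.51 and 9.82 against 13.38, 13.26 and 13.26, a 12.7-fold rise. These 3 genes code for secreted proteins, as do the protease HTRA1 (16.8-fold) and the cytokine IL32 (12.6-fold). The RAS-like GTPase RRAD rose 15-fold, and the signalling genes PLCB4 and DOCK10 10.2-fold and 10.1-fold. SRPX, EML1, POPDC3, TMEM47, DSE, LHFPL6 and RFTN1 complete the 15 highest, at 10.4-fold to 19.4-fold.

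The lowest was LY6D, a surface protein of stratified epithelia, at 9.24, 9.22 and 9.29 in NT and 5.46, 5.02 and 5.26 in EGFRsh, a 16-fold fall. The epithelial adhesion gene CEACAM5 fell 14.7-fold, the lipid hydroxylase FA2H 12.1-fold and the cation channel TRPC6 14.1-fold. IFITM3, an interferon-induced antiviral membrane protein, was 11.78, 11.89 and 11.86 against 8.61, 8.56 and 8.48, a 9.80-fold fall. LCP1, the actin bundler L-plastin, was 12.14, 12.28 and 12.15 against 9.06, 9.07 and 9.04, an 8.79-fold fall. The chemokine CX3CL1 fell 8.29-fold. RGCC, MPZL2, CLIC2, AZGP1, SEL1L3, MYO1D, CDS1 and ADGRG1 complete the 15 lowest, at 8.04-fold to 14.8-fold.

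Markers were used to check the cells. All 10 measured lung epithelial markers were lower in EGFRsh, 9 by at least 2-fold (median -2.0), and their summed level was 15.90 to 15.93 in NT and 13.46 to 13.52 in EGFRsh. The adherens junction cadherin CDH1 and the surface antigen EPCAM fell 77.6-fold and 30.3-fold. The defining markers of a lung epithelial cell were thus lower in EGFRsh, though EPCAM, KRT19, KRT7, KRT18 and NKX2-1 stayed above the array medians. The median percentile of the 10 markers among all probe sets was 98.0 in NT and 70.3 in EGFRsh. Fibroblast markers were called in 2 of 12 cases: LUM was 4.25, 4.24 and 4.17 in NT and 6.77, 6.77 and 6.82 in EGFRsh, and THY1 fell by 0.26, a call lost without EGFRsh replicate 2, EGFRsh replicate 3 or NT replicate 1. Their summed level was 10.11 to 10.25 in NT and 10.16 to 10.21 in EGFRsh, and 11 of the 12 were dim in both groups. Of 9 endothelial markers, ENG rose 4.43-fold (another probe set by 0.30 on the log2 scale) and CDH5 fell by 0.34, and the summed level was 8.93 to 8.96 against 9.56 to 9.60. Of 10 leukocyte markers, 2 were higher and 3 lower, CD79A by 1.54-fold, with summed levels of 9.59 to 9.62 against 9.41 to 9.50. In bulk RNA, a change in the share of cells of a kind and a change in RNA per cell cannot be told apart.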

How the data were processed

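The deposited values are linear intensities of 22277 probe sets per array. The submitters' processing notes name RMA for them; the sources used here do not give its version. Array medians were 141 to 143 in these 6 arrays. RNA was copied from an oligo-dT primer per the labels' protocols, so signal far from the 3' end depends on intact RNA. Values were taken to log2(intensity + 1). Of the 22277 probe sets, 62 were controls; 19064 had 1 gene symbol, 1043 several and 2108 none. The 3 EGFRsh and 3 NT arrays were compared in limma 3.58.1 (R 4.3.3; lmFit, eBayes, 4 residual degrees of freedom). Errors are standard errors, and adjusted p-values cover all 22215 tested probe sets. A gene was called at adjusted p under 0.05.

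The comparison and its 53 lists were chosen with earlier results of these data known. Text names EGFR, up to 5 called members per list with the largest change and a higher group mean of at least 7.17, others for family comparisons, then the 15 highest and 15 lowest other genes. A simulation of 22215 probe sets held few true differences: 80 of log2 size 0.5, 80 of size 1 and 40 of size 2. Recovery was 63.7%, 93.8% and 100% for these sizes, and 2.92% of the calls were false. In the arrays a far larger part, 50.3% of probe sets, was called, so the simulated shares need not hold there. Alternatives covered the samples fitted, replicate block, eBayes settings, array weights, normalization, dim probe sets, pseudocount, threshold, probe set choice and each array left out. The number of arrays limits precision. Figures used matplotlib 3.10.9.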

Additional observations from a re-analysis of the deposited data

Results flagged for a closer look

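A signal outside the comparisons of genes appeared in 2 control probe sets. The 18S ribosomal RNA 5' probe set was higher in EGFRsh than in NT by 7.75 on the log2 scale, and the 28S ribosomal RNA 5' probe set by 4.00. At 18S the EGFRsh log2 levels were 14.43, 12.37 and 14.41, so EGFRsh replicate 2 lay below the other EGFRsh arrays and above all NT arrays (5.37, 6.24 and 6.37). The other arrays of the series have a different median and spread, so their levels are not on the same scale. There the 18S 5' probe set was 6.90 to 8.16 in parental and 5.40 to 5.55 in ERC4 cells, and the 28S 5' probe set 9.26 to 9.88 and 6.41 to 7.36. The 3' probe set of 28S moved by -0.05 between NT and EGFRsh. The source of the signal was not tested.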

How the results depend on the processing

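With 1 probe set per gene, fewer features were tested, and 3259 were called higher and 3181 lower, 605 and 486 by at least 2-fold. The other alternatives kept the counts over probe sets within 1.5 times: leaving out 1 array at a time gave 4973 to 5232 higher and 5038 to 5490 lower. With the replicate number as a block, 5131 were higher and 5323 lower, 1011 and 944 by at least 2-fold; same-numbered arrays correlated at -0.14, -0.03 and -0.11 in their deviations from the group means, so the numbers do not pair the samples. Without dim probe sets fewer genes were tested, and the leading count of several lists fell. It was 8 lower for cornified envelope genes, 5 lower for eicosanoid genes, 6 lower for ion channels and 1 lower for leukocyte markers. For zinc finger genes it was 35 higher and for HOX genes 3 higher. The balance of other lists changed. Complement and coagulation then had 12 higher and 9 lower, cytokine receptors 9 higher and 11 lower, and the BCL2 family 6 higher and 4 lower. At an adjusted p under 0.01, 12 cytosolic and 9 mitochondrial ribosomal protein genes were higher; without single arrays the latter count was 9 to 14. Of the 273 genes named by the rule, EGFR included, none reversed and 269 kept their call in every alternative. HLA-DQB1, MRPS12, MT1E and RB1 lost it in at least 1. Genes named outside the rule, such as THY1, are not in this count.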

Other observations

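Large rises and falls were unevenly spread over chromosomes, a description chosen after values were seen and not tested. Of all genes, 5.06% rose and 4.06% fell 2-fold or more. On chromosome 4, 55 of 453 genes rose and 15 fell that far, on chromosome 5, 44 and 11 of 507, and on chromosome 13, 23 and 5 of 214. Falls outnumbered rises of that size on chromosome 14, with 29 against 17 of 381, and on chromosome 12, with 41 against 25 of 674. Chromosome 17 had 14 higher and 35 lower of 700, so its 2-fold falls lay near the share of all genes and its rises below it. Counting calls of any size, 243 of its 700 genes were lower and 100 higher, and its median log2 fold change of -0.12 was the lowest of the chromosomes. Among runs of 15 neighbouring measured genes, in the RefSeq order of GRCh38.p14, the highest median was 1.09, between PHKA2 and EIF2S3 on chromosome X, where 11 genes were higher and 1 lower, PRDX4 among them. The run between NAA15 and OTUD4 on chromosome 4 had a median of 0.85. The lowest median, -0.79, lay between CKB and CDCA4 on chromosome 14, where 14 of 15 genes, AKT1 included, were lower, and a run between ATP6AP1 and TMLHE on chromosome X followed at -0.73, with 13 of 15 lower.

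Some genes that fell in EGFRsh ranked higher in NT than in the parental line, whose arrays have a different median and spread. RGCC, a cell cycle regulator, stood at percentile 16.1 of all probe sets in parental, 75.7 in NT and 18.6 in EGFRsh arrays. GPNMB stood at 25.8, 85.1 and 33.3, and SPRR3 at 71.1, 96.4 and 40.6. For these 3 genes NT held the highest rank of the 3 groups; they were chosen after their values were seen.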
